A study of Sus scrofa with 12 samples.

Results

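miR-7-5p (ssc-miR-7-5p) is 1 of the 252 mature pig microRNAs (miRNAs, short RNAs that pair with messages and repress them) measured in extracellular vesicles, which are small membrane-bound particles shed by cells. It was chosen by its normalized read counts in the perfusion libraries, which are high, with earlier results of these data known. Its perfusion levels and its differences between perfusion and the other cultures are therefore given as a description, with no test. The difference between microcarriers and plates did not enter that choice and is tested, though its limma error pools the spread of all 12 libraries.

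The vesicles came from wild-type bone marrow mesenchymal stromal cells, the adherent marrow cells that support blood formation and can form bone, cartilage and fat. The marrow was aspirated from the hip socket of juvenile Yucatan minipigs, and cells were expanded on plates and frozen at passage 3 before use. Cells of 4 donors were each grown in 3 ways, which gave 12 libraries, 1 per donor and culture. The plate group was seeded at 5000 cells/cm2 on flat tissue culture plastic in medium with 10% fetal bovine serum. The perfusion group was seeded on scaffolds with medium circulating at 4 mL/min, and its serum content is not given in the labels. The microcarrier group was seeded on beads for a spinner flask and kept serum-free for 2 hours before 10% fetal bovine serum was added. Vesicles of every group were collected from conditioned medium by differential ultracentrifugation. A vesicle library mixes particles from all cells in the vessel, and any particles from added serum cannot be told apart in it. Normalized read counts are relative to the other reads of a library, so neither vesicle number nor miRNA per vesicle can be read from them.

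miR-7 is an old miRNA, conserved from insects to mammals, and best known from neurons and from the hormone-secreting cells of the pancreas and pituitary. In human cells its described targets include the epidermal growth factor receptor EGFR and the insulin receptor substrates IRS1 and IRS2, and it is studied as a brake on growth factor signalling. In mouse and human brain the circular RNA Cdr1as carries many binding sites for miR-7 and is cut under the guidance of miR-671. The RefSeq gene table of the pig assembly Sscrofa11.1 lists 2 miR-7 genes. MIR7-2 lies inside HNRNPK, the gene of a widely expressed RNA-binding protein, and MIR7-1 lies between AEN and DET1. The deposited row for the 5p arm does not separate the 2 genes.

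In all 4 donors the normalized count of miR-7-5p was higher in perfusion vesicles than in the plate or microcarrier vesicles of the same donor. On plates the normalized read count was 4138 in donor 1, 5488 in donor 2, 3100 in donor 3 and 2100 in donor 4. In perfusion it was 14392 in donor 1, 27006 in donor 2, 4486 in donor 3 and 12064 in donor 4. On microcarriers it was 3755 in donor 1, 5054 in donor 2, 2997 in donor 3 and 4231 in donor 4. Perfusion donors 1, 2 and 4 stood above every plate and microcarrier library. Perfusion donor 3 did not: its normalized count lay below those of plate donor 2 and microcarrier donor 2. In normalized counts the perfusion group thus overlapped both others. By share of reads, perfusion donor 3 held 0.425%, just above plate donor 2 at 0.421% and above microcarrier donor 2 at 0.376%. The overlap thus depends on the scaling.

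**Figure D1:**
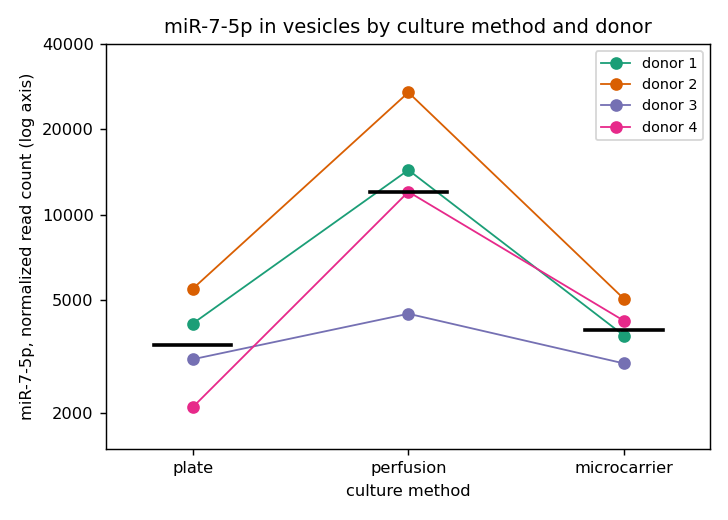
Normalized read count of miR-7-5p (log axis) by culture method, with 1 point per library, lines joining libraries of the same donor and black bars at the geometric mean of 4 libraries. Perfusion is the highest point of every donor, from 4486 in donor 3 to 27006 in donor 2.

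The mean of the 4 plate libraries was 3707 ± 1450 normalized counts (SD, n = 4). Perfusion averaged 14487 ± 9357 and microcarriers 4009 ± 862 (SD, n = 4 each). On the log2(value + 1) scale, perfusion stood 1.79 ± 0.45 above plates and 1.61 ± 0.45 above microcarriers (SE from the limma fit, 4 libraries per group). Both differences use the same 4 perfusion libraries. Against its own plate library, perfusion was 3.48-fold higher in donor 1, 4.92-fold in donor 2, 1.45-fold in donor 3 and 5.74-fold in donor 4. Against its own microcarrier library it was 3.83-fold higher in donor 1, 5.34-fold in donor 2, 1.50-fold in donor 3 and 2.85-fold in donor 4. Donor 3 thus had the smallest difference in both comparisons, and donor 4 the largest against plates because its plate level was the lowest of the 12. Leaving out any 1 of the 12 libraries gave differences of 1.40 to 2.26 against plates and of 1.22 to 2.09 against microcarriers. The lowest values came without perfusion donor 2 and the highest without perfusion donor 3.

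miR-7-5p was an abundant miRNA in every library, and nearer the top of the list in perfusion. It held between 0.159% and 0.421% of the reads on plates, between 0.425% and 2.07% in perfusion and between 0.246% and 0.376% on microcarriers. Its mean share was 1.21% ± 0.690 of the reads in perfusion (SD, n = 4), against 0.307% ± 0.119 on plates and 0.312% ± 0.0532 on microcarriers. Counting error was small beside the differences of the perfusion mean from the other means. The shallowest library, plate donor 2, held 1114 miR-7-5p reads and a share with a 95% Wilson interval of 0.397% to 0.447%. That interval does not separate it from perfusion donor 3, at 0.410% to 0.439%. The largest number of miR-7-5p reads was 19892, in perfusion donor 1. Among the 252 miRNAs, counted from the most abundant, it ranked 28 to 44 on plates, 12 to 26 in perfusion and 26 to 35 on microcarriers. The rank of 26 in perfusion donor 3 equalled that in microcarrier donor 2.

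By mean normalized count in each culture, miR-7-5p was 31st on plates, 14th in perfusion and 32nd on microcarriers. In perfusion the next above it was miR-199a-5p, a mesenchymal miRNA, at 18119 ± 7249, and the next below was miR-99a-5p at 13090 ± 2394 (SD, n = 4). On plates its neighbours were miR-125b at 4137 ± 3018 and miR-30a-5p at 3679 ± 1723. On microcarriers they were miR-92a, of the miR-17-92 paralogues, at 4653 ± 581 and miR-103 at 3449 ± 1219. None of these neighbours differed from miR-7-5p in its culture by more than the spread between libraries. miR-21-5p, an abundant stromal miRNA, served as a reference within each library. miR-7-5p reached 0.723% to 2.43% of the miR-21-5p level on plates, 1.59% to 7.65% in perfusion and 0.794% to 1.55% on microcarriers.

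As a description of the choice, few miRNAs had a larger perfusion difference, and those were less abundant. In the perfusion against plate comparison 15 of 252 miRNAs had a larger log2 difference upward, and against microcarriers 11 did. None of these belonged to the 63 miRNAs with a mean of at least 1000 normalized counts over the 12 libraries. The median difference of all 252 miRNAs was -0.06 against plates and -0.07 against microcarriers.

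**Figure D2:**
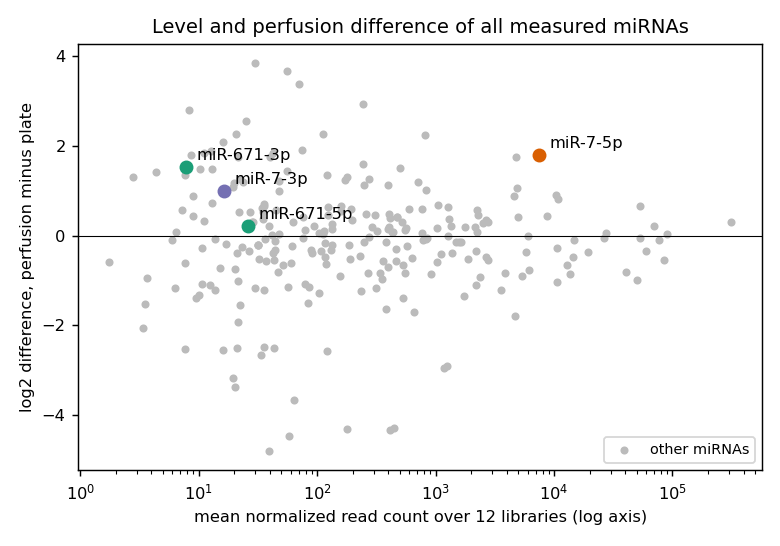
Mean normalized read count over 12 libraries (log axis) against the log2 difference of perfusion minus plate, with 1 point per miRNA. miR-7-5p lies at 1.79 with no point of equal or greater abundance above it, while the other arm, miR-7-3p, and both arms of miR-671 lie among the miRNAs of low count.

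The comparison of microcarriers with plates asked whether a stirred bead culture also differed from flat plastic in miR-7-5p. No difference was detected: the log2 difference was 0.18 ± 0.45 (SE, 4 libraries per group; limma adjusted p = 0.851). This SE, the interval and the adjusted p rest on a spread pooled over all 12 libraries. That pool includes the widely spread perfusion libraries by which miR-7-5p was chosen. Without perfusion donor 3 the SE of this comparison was 0.34. The 95% interval of the main fit ran from -0.80 to 1.15, so in that fit differences of about that size in either direction cannot be told from 0. An exact two-sided permutation test of the 8 libraries, which used neither the perfusion libraries nor the pairing by donor, gave p = 0.714. The smallest value possible in that unpaired test is 0.0286. An exact test paired by donor cannot reach 0.05 with 4 donors, so it could not decide the question. Within donors the microcarrier level was 0.907 times the plate level in donor 1, 0.921 times in donor 2, 0.967 times in donor 3 and 2.02 times in donor 4. It was thus higher in 1 of 4 donors, and without plate donor 4 the difference became -0.07. In this comparison 2.38% of the 252 miRNAs passed an adjusted p of 0.05.

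The libraries were far apart in perfusion. The highest perfusion library had 6.02 times the normalized miR-7-5p count of the lowest, against 2.61 times on plates and 1.69 times on microcarriers. With 1 library per donor and culture, a difference between donors cannot be told from one between vessels, preparations or libraries. The perfusion values are also those by which miR-7-5p was chosen, so their spread is given as a description. Among the 63 miRNAs with a mean of at least 1000 normalized counts, the SD of log2 values over the perfusion libraries was 1.07 for miR-7-5p, the third highest, and 0.30 at the median. On plates its SD was 0.59 against a median of 0.53, and on microcarriers 0.32 against 0.36. Donor 2 was the highest donor in every culture, 0.65 above the group mean on plates, 1.17 in perfusion and 0.36 on microcarriers on the log2 scale. Donor 3 was below the group mean in every culture, by -0.17 on plates, -1.42 in perfusion and -0.39 on microcarriers. Donors 1 and 4 changed places between cultures.

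**Figure D3:**
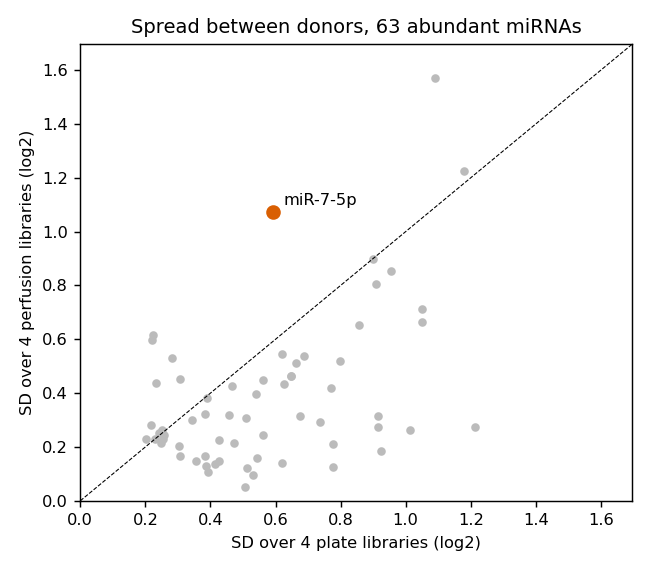
SD of log2(value + 1) over the 4 plate libraries against the SD over the 4 perfusion libraries for the 63 miRNAs with a mean of at least 1000 normalized counts, with a dashed line of equality. miR-7-5p lies above the line, at 0.59 on plates and 1.07 in perfusion.

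The other arm of the hairpin, miR-7-3p, is the strand that is usually discarded when the precursor is cut. Its normalized counts were 16.9, 0, 15.7 and 12.2 in plate donors 1 to 4. They were 11.6, 11.7, 20.3 and 17.2 in perfusion donors 1 to 4, and 21.0, 20.7, 34.5 and 13.6 in microcarrier donors 1 to 4. The 3 groups overlapped, and the highest library was microcarrier donor 3, whose 5p level was among the lowest. The log2 difference of miR-7-3p was 0.99 ± 0.78 for perfusion against plates (limma adjusted p = 0.408), 1.49 ± 0.78 for microcarriers against plates (limma adjusted p = 0.255) and -0.50 ± 0.78 for perfusion against microcarriers (limma adjusted p = 0.680). Plate donor 2, with the fewest reads, listed miR-7-3p at 0. Without that library the difference against plates was -0.0034 for perfusion and 0.50 for microcarriers.

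**Figure D4:**
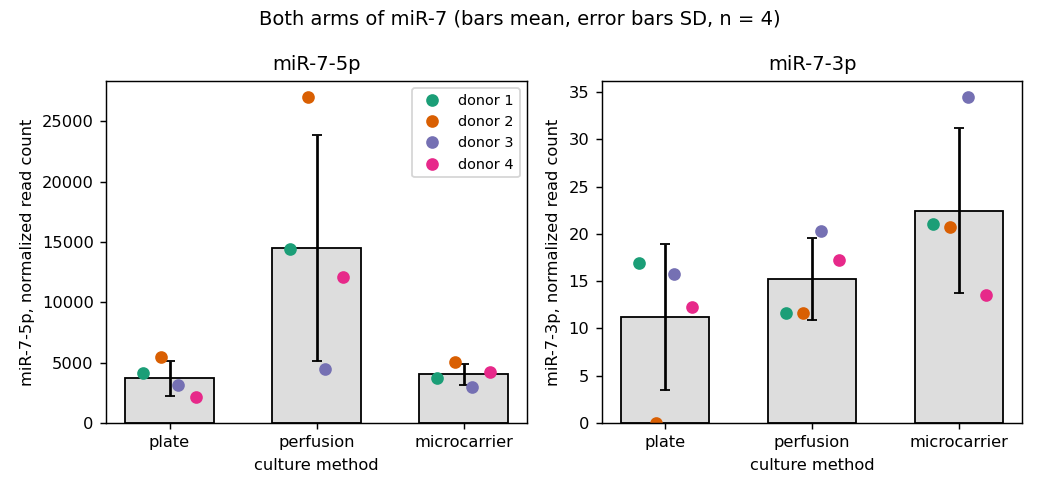
Normalized read counts of miR-7-5p and miR-7-3p by culture method, with bars at the mean, error bars of 1 SD (n = 4) and 1 point per library coloured by donor. The 5p mean is 14487 in perfusion against 3707 on plates, while the 3p means run from 11.2 to 22.4.

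The reads of both arms gave a direct ratio within each library that no scaling can change. Which of the 2 miR-7 genes the 3p row covers is not known here, so the 2 rows may not stand for the same hairpins. There were 245, 197 and 172 reads of the 5p arm per 3p read in plate donors 1, 3 and 4, and at least 371 in plate donor 2, with the 3p arm taken at the floor of 3 reads in that library. On microcarriers the ratio was 178, 244, 87.0 and 312 in donors 1 to 4. In perfusion it was 1243 in donor 1, 2317 in donor 2, 221 in donor 3 and 699 in donor 4. Perfusion donors 1, 2 and 4 thus lay above every measured ratio of the other cultures, and donor 3 within their range. Plate donor 2 cannot be placed in this order, since its ratio is known only as a lower bound. The 3p arm rested on 6 to 54 reads where it was detected, and on 6 in perfusion donor 2 and microcarrier donor 4. That the arms differ in their response to perfusion was not tested, since the 5p values chose the miRNA.

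miR-671, the miRNA that directs cutting of Cdr1as, was measured through both arms and was low. miR-671-5p averaged 27.1 ± 11.1 normalized counts in perfusion (SD, n = 4), beside 25.7 ± 15.5 on plates and 24.9 ± 12.0 on microcarriers. Its log2 difference was 0.18 ± 0.54 for perfusion against microcarriers (limma adjusted p = 0.827) and 0.20 ± 0.54 for perfusion against plates, which did not pass either. miR-671-3p averaged 4.57 ± 7.30 on plates, 9.05 ± 4.59 in perfusion and 9.84 ± 1.05 on microcarriers, and was listed at 0 in plate donor 2. It rested on 2, 0, 2 and 38 reads in plate donors 1 to 4. Its log2 difference for perfusion against plates was 1.53 ± 0.78 (limma adjusted p = 0.206), and 2.33 with an adjusted p of 0.0255 without plate donor 4. For microcarriers against plates it was 1.79 ± 0.78 (limma adjusted p = 0.202), and 2.59 with an adjusted p of 0.0509 without plate donor 4. Without that library the plate level of miR-671-3p is near the floor. In the comparison of perfusion with plates 20.6% of all 252 miRNAs passed, and neither arm of miR-671 was among them with all libraries kept.

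Of 17 miRNAs listed for neurons and hormone-secreting cells beside miR-7, 10 were among the rows. In perfusion against plates 2 of the 10 rose and none fell, while 10.3% of all 252 miRNAs rose and 10.3% fell. miR-132, induced by neuronal activity, rose to 212 ± 142 normalized counts in perfusion from 42.3 ± 24.8 on plates (SD, n = 4), a log2 difference of 2.26 ± 0.54 (limma adjusted p = 0.0110). miR-129a-3p rose from 56.3 ± 33.8 to 419 ± 222 (log2 difference 2.93 ± 0.72, limma adjusted p = 0.0130). The median log2 difference of the 10 was -0.08, against -0.06 for all miRNAs. The remaining 8 did not pass, among them miR-129a-5p, the other arm of the same hairpin, at 0.41 ± 0.34, and miR-9, a miRNA of neural progenitors that was named after its values were seen, at 32.4 ± 17.6 normalized counts on plates and 30.3 ± 20.9 in perfusion. miR-9, miR-9-1 and miR-9-2 held identical values in every library, and miR-129a-5p with miR-129b and miR-218-5p with miR-218b nearly share theirs, so these rows are uncertain as separate miRNAs. miR-375, the leading miRNA of the pancreatic islet, was not among the rows analysed here.

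In perfusion against microcarriers none of the 10 passed, where 15.5% of all 252 did, and their median was 0.83 against -0.07. With donor as a block in the fit, which called more miRNAs in all, miR-218-5p (1.49 ± 0.39, limma adjusted p = 0.0170) and miR-218b passed there. In microcarriers against plates none of the 10 passed either, where 2.38% of all 252 miRNAs did. With the donor block, which called more miRNAs in all here too, miR-129a-3p was higher (2.00 ± 0.56, limma adjusted p = 0.0460). There miR-218-5p was lower (-2.32 ± 0.39, limma adjusted p = 0.0038), with miR-218b beside it. The summed level of the 10 ran from 1975 to 4464 normalized counts on plates, from 3203 to 4386 in perfusion and from 1261 to 2643 on microcarriers.

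Other miRNAs described as repressing EGFR or IRS1 moved in both directions. Of the 6 measured, 2 fell and none rose in perfusion against plates, while 10.3% of all 252 miRNAs rose and 10.3% fell. miR-126-3p, the endothelial miRNA, fell to 144 ± 29.1 normalized counts in perfusion from 1234 ± 738 on plates (log2 difference -2.90 ± 0.56, limma adjusted p = 0.0051). miR-27a fell from 11839 ± 4647 to 5626 ± 1420 (-1.03 ± 0.29, limma adjusted p = 0.0235), a call that ended without plate donor 1 or 2 or without perfusion donor 1 or 3 (adjusted p of 0.0529 to 0.0810). In perfusion against microcarriers 2 rose and 2 fell, while 5.56% of all miRNAs rose and 9.92% fell. miR-133a-3p, a muscle miRNA, and miR-145-5p, a smooth muscle miRNA, rose by 1.87 ± 0.37 (limma adjusted p = 0.0038) and 1.59 ± 0.41 (limma adjusted p = 0.0210), and the call of miR-145-5p ended when any of 3 libraries was left out (adjusted p of 0.0509 to 0.0576). miR-126-3p and miR-27a fell again, by 3.56 and 1.36 on the log2 scale. In microcarriers against plates none of the 6 passed, where 2.38% of all 252 miRNAs did. With donor as a block, which called more miRNAs in all, miR-133a-3p (-1.17 ± 0.32, limma adjusted p = 0.0460) and miR-145-5p (-1.23 ± 0.29, limma adjusted p = 0.0282) were lower. The summed level of the 6 was 6627 to 9596 normalized counts in perfusion, below the plate range of 11651 to 22535 and the microcarrier range of 13645 to 23734. miR-7-5p at 4486 to 27006 therefore exceeded the other 6 together in perfusion donors 1, 2 and 4. In every library miR-27a made up most of the sum of the 6, so the sum mainly follows that miRNA. The means of miR-145-5p and miR-133a-3p were higher in perfusion than on plates. Those of miR-27a, miR-126-3p, miR-128 and miR-146a-5p were lower.

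The miRNAs whose pattern lay nearest to that of miR-7-5p were found by the root mean square (RMS) difference of log2 profiles over the 12 libraries, each centred on its own mean, among 142 others with a mean of at least 100 normalized counts. A flat profile would lie 1.02 away. The nearest was miR-503, of the cell cycle-restraining miR-16 family, at 0.66, followed by miR-149 at 0.69, the inflammation-linked miR-155-5p at 0.74, miR-425-5p at 0.75 and miR-92b-3p at 0.75. These distances include the perfusion difference by which miR-7-5p was chosen. Each of the 5 had its highest mean in perfusion, which the choice by likeness favours and which is given with no test. miR-149 stood at 295 ± 49.4 normalized counts in perfusion (SD, n = 4), 119 ± 13.5 on plates and 119.5 ± 25.3 on microcarriers. miR-503 stood at 225 ± 62.8 in perfusion, 156 ± 49.4 on plates and 93.5 ± 18.2 on microcarriers.

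**Figure D5:**
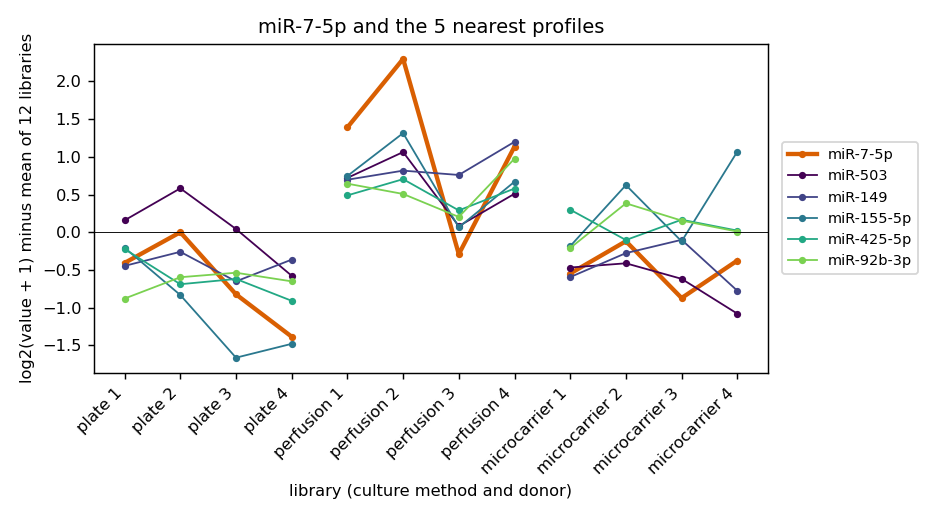
Log2(value + 1) minus the mean over 12 libraries for miR-7-5p and the 5 miRNAs with the smallest RMS difference from it, by library, with lines broken between culture methods. miR-7-5p has the widest excursion in perfusion, and miR-503, at an RMS difference of 0.66, is the nearest profile.

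When each profile was centred within its culture, which removes the culture differences and leaves those between libraries of a culture, other miRNAs came nearest. miR-27b-3p lay 0.36 from miR-7-5p, miR-503 0.40, miR-27a 0.41, miR-24-3p 0.41 and miR-9843-3p 0.42, where a flat profile would lie 0.63 away. miR-27b-3p read 121171, 114803, 38190 and 42355 normalized counts in plate donors 1 to 4. It read 57265, 93036, 20884 and 45895 in perfusion, and 160507, 149108, 57555 and 125027 on microcarriers. Its donor 3 was the lowest in every culture, and donor 2 the highest in perfusion alone. The means of miR-27b-3p, miR-27a and miR-24-3p were lower in perfusion than in the other cultures, while that of miR-7-5p was higher. Of these 3, only miR-27a passed the test in either perfusion comparison. miR-503 was the 1 miRNA on both lists of 5. Each list depended on single libraries: the list over all libraries kept 2 of 5 members without plate donor 4 and 3 of 5 without perfusion donor 2. The list within cultures kept 2 of 5 without plate donor 3 and 3 of 5 without plate donor 1 or without perfusion donor 2.

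Total reads per library ran from 264407 to 3253003, and perfusion libraries, at 671012 to 1614726, lay inside that range. Of 12 stromal miRNAs listed, 11 were measured, with a summed level of 440053 to 642395 normalized counts on plates, 594185 to 716054 in perfusion and 504904 to 755714 on microcarriers. None of the 11 passed in perfusion against plates, where 20.6% of all miRNAs did. Against microcarriers, where 15.5% did, 2 rose, miR-143-3p and miR-145-5p. The call of miR-143-3p ended without perfusion donor 2 or 3 or microcarrier donor 1 or 4 (limma adjusted p of 0.0515 to 0.0727). Of 7 epithelial miRNAs none was among the rows. All 7 markers of blood cells fell in perfusion against both other cultures with every library kept. The call of miR-150 against plates ended with a pseudocount of 10 (limma adjusted p = 0.0575), in limma-voom (0.0892) and without plate donor 1 or 2 or perfusion donor 1, 3 or 4 (0.0658 to 0.113). Their summed level was 39.1 to 385 normalized counts in perfusion, with miR-223 at 0 in all 4 libraries, against 699 to 3228 on plates and 2457 to 8852 on microcarriers. The 2 endothelial markers fell too, from 583 to 2184 on plates and 945 to 6092 on microcarriers to 119 to 191 in perfusion. Of 3 liver and gut markers 2 fell against plates and 3 against microcarriers, and of 3 measured muscle markers 2 fell against plates and 1 rose against microcarriers. Against plates the call of miR-194a-5p ended in 5 settings (limma adjusted p of 0.0529 to 0.0981), among them without plate donor 1 or perfusion donor 1 or 3. That of miR-1 ended in 8 settings (limma adjusted p of 0.0527 to 0.142), a pseudocount of 0.1 and leaving out plate donor 2, 3 or 4, perfusion donor 1, 3 or 4 or microcarrier donor 3. The call of miR-499-5p against plates ended without perfusion donor 3 (limma adjusted p = 0.0658). Whether these marker miRNAs came from cells or from serum was not tested, nor was their part in the level of miR-7-5p. Among the perfusion libraries the blood marker sum was 39.1 in donor 1, 385 in donor 2, 226 in donor 3 and 97.5 in donor 4. Most of each sum was miR-451. miR-7-5p was highest in donor 2, followed by donors 1, 4 and 3.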

How the data were processed

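Small RNA libraries were prepared from vesicle RNA of 4 donors in 3 cultures with a NEBNext kit, per the labels' protocols. Per the submitters' processing notes, Bowtie was used. Neither its version nor the build, annotation or counting method is given in the sources used here. Per the file headers, the table holds a normalized read count for each mature miRNA, a linear signal scaled by the authors. All values in a library were whole multiples of 1 step, within 0.001 of a read, so read numbers could be recovered. Reads carry no molecular identifiers, so intervals and floors cover counting error only.

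The model, on log2(value + 1), used limma 3.58.1 under R 4.3.3 (trend in the prior variance, culture as the only factor, all 12 libraries in 1 fit) for rows reaching 1 in at least 4 libraries, which every row was, with Benjamini-Hochberg adjustment over them. These fold changes understate those of low miRNAs. The design foresaw limma for normalized values. The edgeR count test was not run, and limma-voom on recovered reads was run as an alternative. Single values were compared by exact permutation (SciPy 1.17.1, Python 3.11.15). The fit was tested on simulated counts with equal dispersion in every culture and no donor effect. That simulation does not cover the shared donors or the unequal spread of these data.

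Same-numbered libraries come from the same donor per the labels, so the numbers pair them; the correlation between same-donor deviations from the culture means was 0.02 to 0.67. No replicate pair agreed within sampling noise. Alternatives were a donor block, library totals, pseudocounts of 0.1 and 10, other filters, fits of 2 groups and leaving out each library. Chosen after seeing the data were limma-voom on recovered reads and fits without donor 2 or donor 3. The miRNA and the lists were chosen with earlier results of these data known. Named miRNAs were those of the miR-7 and miR-671 rows, up to 4 of each list by smallest p, the neighbours in level and the 5 nearest in pattern.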

Additional observations from a re-analysis of the deposited data

Results flagged for a closer look

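In groups of 4 libraries, 7 of the 150 groups examined (50 named or listed miRNAs in 3 cultures) held a library far from the other 3 on the log2 scale, about as many as chance gives, since it flags about 1 in 20. miR-7-5p was not among them in any culture. miR-7-3p was listed at 0 in plate donor 2, the shallowest library, against 12.2 to 16.9 normalized counts in the other plate libraries. miR-9843-3p stood at 67.7 in perfusion donor 3 against 109 to 118 in the other perfusion libraries, the same library in which miR-7-5p was lowest. miR-128 stood at 1005 in perfusion donor 4 against 613 to 654. miR-27a stood at 10835 in microcarrier donor 3 against 14744 to 15622. let-7i-5p stood at 71415 in microcarrier donor 1 against 101737 to 107418. miR-126-5p stood at 61.4 in plate donor 1 against 14.8 to 18.8, and at 140 in microcarrier donor 1 against 42.9 to 47.2.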

How the results depend on the processing

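The perfusion differences of miR-7-5p kept their direction under every alternative run. They were 1.79 against plates and 1.61 against microcarriers with donor as a replicate block, 1.86 and 1.76 with library totals, and 1.83 and 1.61 in limma-voom on recovered reads. The microcarrier against plate difference (0.18) passed under none, was 0.18 with the donor block (adjusted p = 0.759), 0.27 without donor 2 and 0.25 without donor 3, ran from -0.068 to 0.39 with 1 library left out, and turned negative without plate donor 4.

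The count of called miRNAs for microcarriers against plates (6) was 23 with the donor block and 3 in a fit of 2 groups, and ran from 3 to 12 with 1 library left out. For perfusion against plates (52) it ran from 29 to 55. For perfusion against microcarriers (39) it was 59 with the block and ran from 22 to 49. With library totals the latter split 17 higher and 20 lower, against 14 and 25, while the median of all miRNAs moved from -0.07 to 0.08. Of the 18 measured pathway list members other than miR-7-5p, none passed for microcarriers against plates, 5 did with the donor block and 0 to 1 with 1 library left out. Of 26 marker miRNAs none passed there, 5 did with the block and 0 to 2 with 1 left out. In perfusion against plates 13 marker miRNAs passed, and 9 to 13 with 1 left out. Beside these counts, the donor block changed no call of miR-7-5p, miR-7-3p or miR-671.

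With 1 library left out, miR-7-3p in perfusion against plates ran from -0.0034, without plate donor 2, to 1.38, and a pseudocount of 0.1 gave 1.80. miR-671-5p changed sign in microcarriers against plates with library totals (-0.051), and in all 3 comparisons when some single library was left out (-0.39 to 0.40, -0.20 to 0.54 and -0.20 to 0.44). miR-671-3p in perfusion against microcarriers ran from -0.50 to 0.16. The cause was not tested. The planned edgeR test and TMM-scaled voom on recovered reads were not run. The counts moved most without plate donor 1 (12 called), 3 or 4 (3 each) for microcarriers against plates, without perfusion donor 1 (29) or 3 (30) for perfusion against plates, and without perfusion donor 1 (24), 3 (25) or 4 (22) for perfusion against microcarriers. Shallow plate donor 2 and the low counts of miR-7-3p and miR-671 limit what can be said of those rows.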
